A study of Mus musculus with 46 samples.

Results

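The interleukin-12 (IL-12), IL-18 and IL-27 axes were followed in mouse MC-38 tumors through 10 genes, taken by name from a table of 48795 genes measured by bulk RNA sequencing in 46 samples. They comprise 5 ligand subunits (Il12a, Il12b, Il27, Ebi3 and Il18), 4 receptor chains (Il12rb1, Il12rb2, Il18r1 and Il18rap) and the soluble inhibitor Il18bp. No filter on measured values entered the choice, which was made with earlier results of these data known. MC-38 is a colon carcinoma line of C57BL/6 mice, and the tumors were grown under the skin of female C57BL/6NTac mice of 8 to 10 weeks. Cultured MC-38 cells (n = 3) and baseline tumors (n = 3) were set beside 4 antibody groups of 5 tumors. These received the anti-PD-1 antibody muDX400 (PD-1 Ab, 5 mg/kg) or an isotype antibody, as 1 dose with collection at day 4 or 2 doses with collection at day 8. The genetic arm held 10 PD-1cKO tumors and 10 tumors of wild-type (WT) littermates, both labelled day 28. The labels do not say from when days are counted. The study's methods count from tumor implant and give later days than the labels for the antibody groups and an earlier day for the PD-1cKO tumors, whose day also differs within the study's text, so days were not compared between the arms. PD-1cKO mice carry a Pdcd1 gene with exons 2 and 3 between loxP sites and a creERT2 in the ROSA26 locus, which is active in all cell types rather than in T cells alone. Both genotypes received tamoxifen (40 mg/kg for 5 days).

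IL-12 joins the subunits encoded by Il12a and Il12b, is made by activated dendritic cells and macrophages, and acts on T and NK cells through Il12rb1 and Il12rb2 to drive STAT4 and interferon-γ. IL-27, a pair of the Il27 and Ebi3 products, also comes from myeloid cells and signals through Il27ra and Il6st. IL-18 is stored as an inactive precursor that caspase-1 cuts, needs both Il18r1 and Il18rap on the target cell, and is neutralized by secreted Il18bp, itself an interferon-γ-inducible protein.

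The 250 bases upstream of the annotated start are shown for 3 members whose window holds no exon: Il12rb2 and Il12b, which rose after 2 doses of PD-1 Ab, and Il18rap, which did not pass the test. Capitals mark a STAT-type GAS motif (TTCNNNGAA). The sequences are RefSeq's for GRCm38.p6, read 5′ to 3′ on the gene's strand.
Il12rb2 (chr6:67376189-67376438, minus strand): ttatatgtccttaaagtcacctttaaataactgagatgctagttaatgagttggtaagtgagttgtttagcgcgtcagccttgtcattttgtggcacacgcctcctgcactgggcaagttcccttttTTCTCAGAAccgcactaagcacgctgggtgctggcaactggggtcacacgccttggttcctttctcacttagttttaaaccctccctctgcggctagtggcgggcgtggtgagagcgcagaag
Il12b (chr11:44399813-44400062, plus strand): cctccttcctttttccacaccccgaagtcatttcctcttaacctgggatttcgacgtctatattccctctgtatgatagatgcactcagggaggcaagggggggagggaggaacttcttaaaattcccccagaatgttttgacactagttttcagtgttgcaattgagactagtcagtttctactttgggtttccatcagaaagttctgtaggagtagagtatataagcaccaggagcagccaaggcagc
Il18rap (chr1:40515112-40515361, plus strand): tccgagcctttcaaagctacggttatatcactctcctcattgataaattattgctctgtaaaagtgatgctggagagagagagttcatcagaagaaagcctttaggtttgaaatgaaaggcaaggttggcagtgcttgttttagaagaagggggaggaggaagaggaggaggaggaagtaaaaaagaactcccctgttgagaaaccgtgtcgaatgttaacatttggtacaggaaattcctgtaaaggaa
The GAS match of Il12rb2 begins at position -123 from its start. Windows were matched for 8 of the 10 members (none for Il12rb1 and Il27), and 2 of those 8 hold the GAS letters, Il12rb2 and 1 of the 3 start sites of Il18r1, with 2 matches there. Of 32851 promoter windows in the same reference, 7.02% hold them. That share is per window, whereas the count of members is per gene over all its windows. On either strand, no member's window held GAAANNGAA (an IRF motif, in 7.13% of windows), GGGANTTCC (NF-κB, 1.43%) or AGGTGTGA (T-box, 1.12%). TATAAA (12.4%) was found on the minus strand for Il18 alone. A match is a string of letters, not a measured site, and a missing match says nothing of the factor.

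Levels are given in FPKM, the fragments assigned to a gene scaled by the gene's length and the library's mapped fragments, so that levels may be set between genes. Changes are log2 fold changes of FPKM + 0.1 with their standard error (SE), tested by limma over every gene averaging at least 0.5 FPKM in a compared group, with p-values adjusted by Benjamini-Hochberg over all genes tested. A gene was called higher or lower at an adjusted p under 0.01 with at least a 2-fold change, and a second count used an adjusted p under 0.05 alone. Il12a never reached the filter, so 9 of the 10 members were tested in tumors.

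Several features of the libraries bear on these values. In isotype 1-dose replicate 1, mitochondrial genes held 54.6% of the FPKM total, against a minimum of 3.45% in its group, and this library was the lowest of its group in 7 of 9 members. Short noncoding RNAs held 30.2% to 66.5% of the total in WT and PD-1cKO libraries and at most 0.082% elsewhere, so levels set across the 2 arms depend on that difference. The sample identifiers in the labels fall into 8 runs, whose meaning is not given. The 10 tumors of the 2-dose comparison share 1 run. In contrast, 7 of 10 PD-1cKO tumors and 3 of 5 isotype 1-dose tumors stand in runs without their comparison group. Baseline tumors and cultured cells stand in runs of their own, apart from the isotype 2-dose tumors they are compared with. Cultured cells carried Ptprc, the pan-leukocyte gene, at 0 to 0.0078 FPKM, and their epithelial markers Epcam, Krt8, Krt18 and Krt19 summed to only 0.608 to 0.708 FPKM. Pdcd1 itself ran from 5.05 to 19.9 FPKM (median 8.29) under the PD-1cKO label and from 1.71 to 7.02 (median 3.01) in WT. The gene-level value sums all exons and was higher under the deletion label, so it does not check the deletion, and these tumors are named by their label throughout.

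Il12a, which encodes the p35 subunit of IL-12 (chr3:68690644-68698547), was at the edge of detection. It was listed at 0 in all cultured, baseline and isotype 2-dose samples. Its highest values were 0.237 FPKM in isotype 1-dose replicate 3, 0.154 in PD-1 Ab 1-dose replicate 4, 0.147 and 0.134 in 2 of 5 PD-1 Ab 2-dose tumors, 0.134 under PD-1cKO and 0.0701 in WT. No change of Il12a was detectable at these levels.

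Il12b encodes the p40 subunit that IL-12 shares with IL-23 (chr11:44400063-44414033). It was listed at 0 in the 3 cultures. The 5 isotype 2-dose tumors had 0.225, 0.276, 0.21, 0.322 and 0.215 FPKM. The 5 PD-1 Ab 2-dose tumors had 1.59, 1.14, 2.37, 1.6 and 1.08 FPKM, every one above every isotype tumor. The mean was 1.56 ± 0.516 against 0.25 ± 0.0482 FPKM (SD, n = 5 and 5), a log2 change of 2.20 (SE 0.27, adjusted p = 0.000885). After 1 dose, the isotype tumors spread from 0 to 1.67 FPKM (0, 0.412, 1.13, 1.67 and 0.45) and enclosed the PD-1 Ab tumors (0.72, 1.18, 0.86, 1.04 and 0.696). In the genetic arm, Il12b ran from 0.237 to 0.936 FPKM (median 0.588) under PD-1cKO and from 0.313 to 0.908 (median 0.587) in WT, and the 2 ranges lay over each other. Il23a, the other partner of p40, stayed at or below 0.973 FPKM in every sample and Il23r at or below 0.146, and neither passed the filter.

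Il27 (chr7:126589010-126594941) encodes the p28 subunit and Ebi3 (chr17:55952640-55957022) its partner. The isotype 2-dose tumors had Il27 levels of 0.737, 0.755, 1.38, 1.56 and 1.33 FPKM, and the PD-1 Ab tumors 3.34, 3.65, 4.5, 2.28 and 1.67 FPKM. The groups did not overlap, but the log2 change of 1.33 (SE 0.30) had an adjusted p of 0.0105, just past the call limit. Ebi3 had 3.64, 2.56, 5.6, 4.6 and 7.61 FPKM with isotype and 11.3, 11.4, 12.4, 13.9 and 5.58 with PD-1 Ab, where replicate 5 alone fell among the isotype values (log2 change 1.2, SE 0.30, adjusted p = 0.0161). Without that replicate, both were called, Il27 at 1.52 (adjusted p = 0.00213) and Ebi3 at 1.42 (adjusted p = 0.00215). Under PD-1cKO, Ebi3 ran from 1.17 to 3.14 FPKM (median 2.14) and in WT from 0.763 to 2.37 (median 1.0), a log2 change of 0.71 (SE 0.23, adjusted p = 0.0174). Il27 had medians of 0.841 and 0.386 FPKM there, with ranges of 0.26 to 1.58 and 0.164 to 1.41 (log2 change 0.72, SE 0.31, adjusted p = 0.0675). The Ebi3 level was above the Il27 level in every tumor, with group medians of the ratio from 2.34 to 4.31. Ebi3 was listed at 0 in all cultures, and Il27 reached 0.0354 FPKM in 1 of 3.

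Il18 (chr9:50554827-50581840) encodes the IL-18 precursor. It was measured at 3.81, 4.27, 3.45, 2.7 and 4.23 FPKM in isotype 2-dose tumors and at 4.47, 5.43, 4.81, 4.38 and 2.58 FPKM with PD-1 Ab. PD-1 Ab replicate 5 was below every isotype tumor and the other 4 were above them (log2 change 0.20, SE 0.21, adjusted p = 0.488). In the genetic arm the medians were 1.91 FPKM under PD-1cKO (0.573 to 3.17) and 1.93 in WT (1.14 to 4.03), with a log2 change of -0.16 (SE 0.25, adjusted p = 0.6). Cultured cells carried 1.39, 0.938 and 1.34 FPKM, below every isotype 2-dose tumor.

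**Figure D1:**
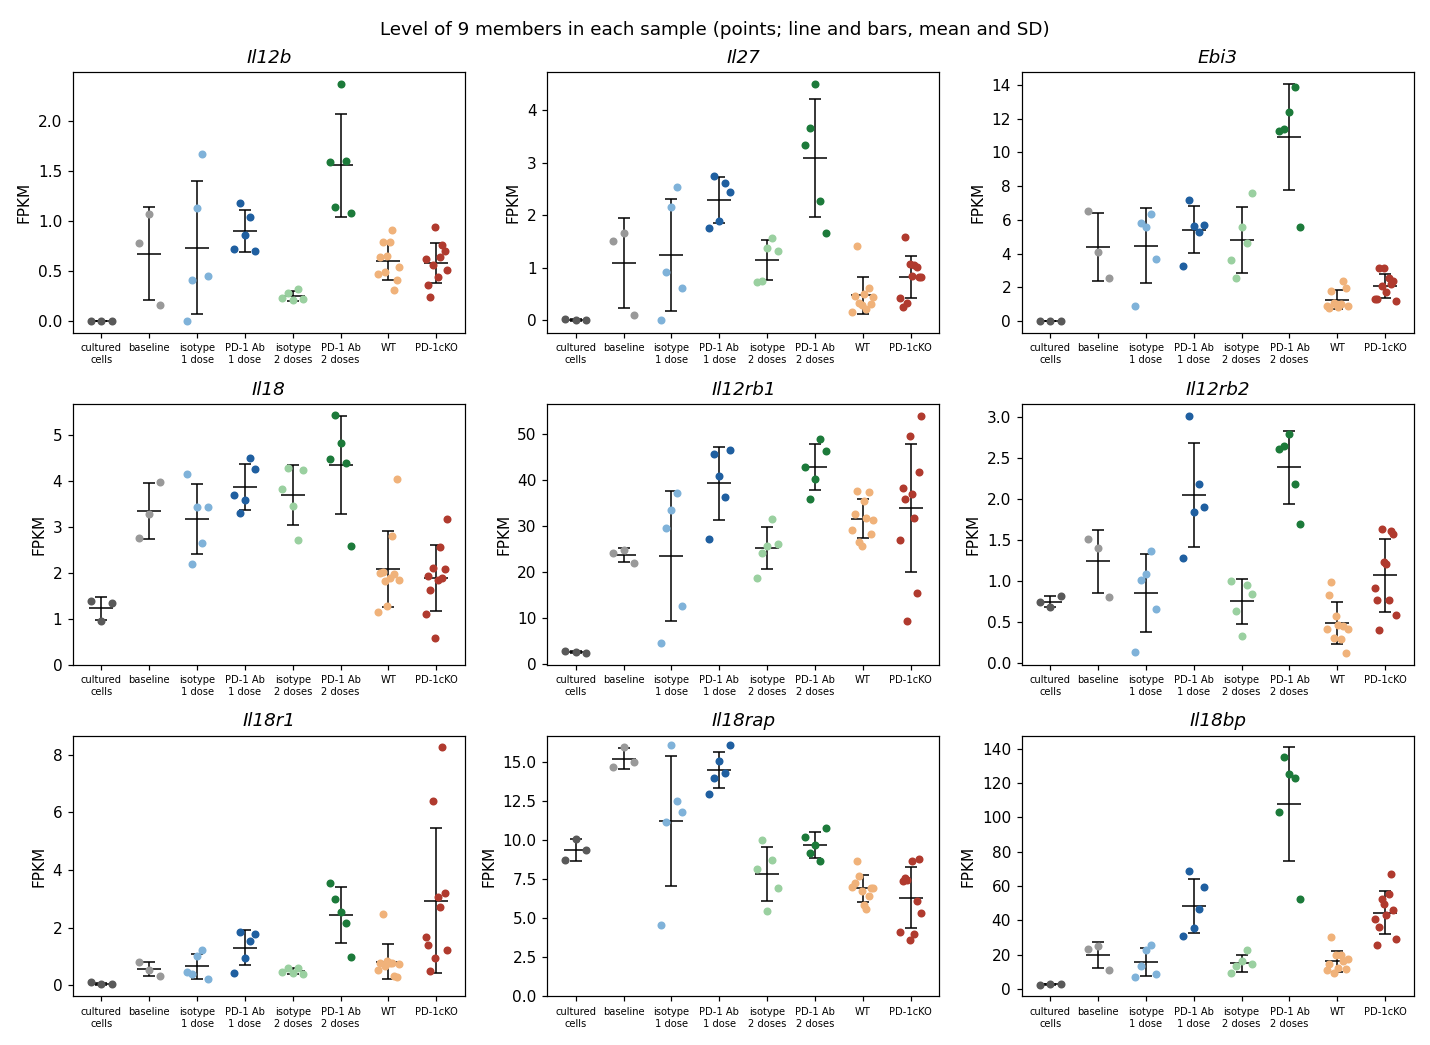
FPKM (linear axis from 0) of the 9 members that passed the filter in each of the 46 samples, 1 panel per gene and 1 point per sample, with group means and SD as lines and bars. Il18bp in PD-1 Ab 2-dose tumors lies between 52.5 and 135 FPKM and every isotype 2-dose tumor at or below 22.6, whereas Il18 points of these groups overlap.

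Il18bp, the secreted IL-18 antagonist (chr7:102014885-102018690), had the largest log2 change of the 9 tested members after 1 and 2 doses of PD-1 Ab, and 1.48 beside 1.5 for Il18r1 under PD-1cKO. After 2 doses, isotype tumors had 9.19, 13.1, 16.2, 22.6 and 14.3 FPKM and PD-1 Ab tumors 103, 135, 125, 123 and 52.5 FPKM. The lowest treated tumor stood above the highest control. The mean was 108 ± 32.9 against 15.1 ± 4.93 FPKM, a log2 change of 2.82 (SE 0.28, adjusted p = 0.000806). After 1 dose the PD-1 Ab tumors, at 31.0, 68.7, 35.6, 46.3 and 59.1 FPKM, again all stood above the isotype tumors (7.02, 13.3, 22.4, 25.5 and 8.96). That log2 change of 1.74 (SE 0.37) was not called (adjusted p = 0.207). Under PD-1cKO, Il18bp ran from 25.8 to 67.1 FPKM (median 44.4) and in WT from 9.56 to 30.1 (median 15.3). Of 10 PD-1cKO tumors, 8 lay above every WT tumor (log2 change 1.48, SE 0.20, adjusted p = 0.000414).

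The inhibitor was also set against its ligand. The Il18bp level per Il18 level was 2.41 to 8.37 (median 3.39) in isotype 2-dose tumors and 20.4 to 28.1 (median 24.8) with PD-1 Ab, without overlap. PD-1 Ab replicate 5, low in both genes, held a ratio within the range of its group. The ratio was 2.83 to 15.6 (median 7.72) in WT and 9.16 to 86.3 (median 22.7) under PD-1cKO, with overlap, and 1.82 to 2.89 in cultured cells. These are ratios of RNA levels and were not tested.

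**Figure D2:**
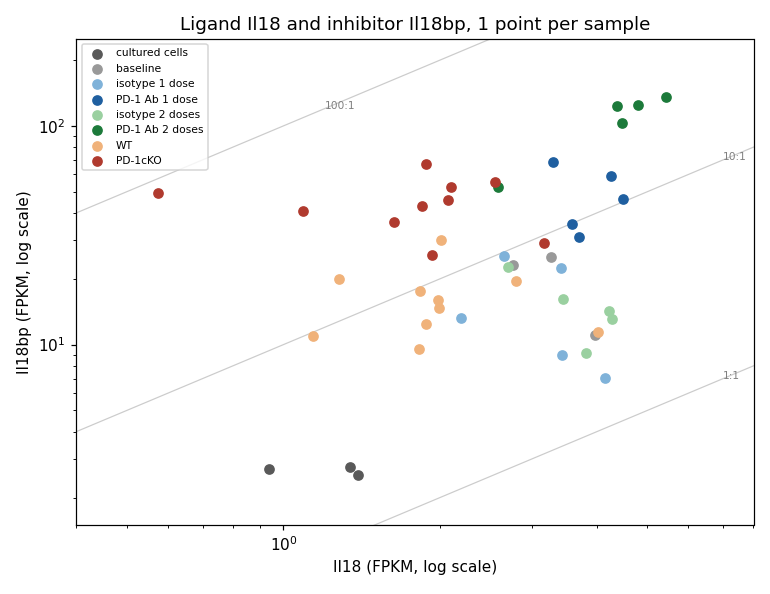
Il18bp against Il18 in FPKM, both on log axes, 1 point per sample colored by group, with gray lines at ratios of 1, 10 and 100. PD-1 Ab 2-dose tumors lie at ratios of 20.4 to 28.1 and isotype 2-dose tumors at 2.41 to 8.37.

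Of the receptor chains, Il12rb2 (chr6:67291318-67376188), the inducible signaling chain of the IL-12 receptor, was low in all groups. Isotype 2-dose tumors had 0.997, 0.643, 0.33, 0.957 and 0.85 FPKM and PD-1 Ab tumors 2.61, 2.65, 2.79, 2.19 and 1.7 FPKM, with no overlap. The log2 change was 1.60 (SE 0.28, adjusted p = 0.00305), and without PD-1 Ab replicate 1, 2 or 3 the adjusted p rose to 0.0111, 0.011 or 0.0128. PD-1cKO tumors ran from 0.402 to 1.64 FPKM (median 1.06) and WT tumors from 0.128 to 0.988 (median 0.441), a log2 change of 1.01 (SE 0.28, adjusted p = 0.00835). That call was lost in 15 of 20 fits that left out 1 tumor, with an adjusted p of at most 0.0176. Cultured cells had 0.75, 0.687 and 0.822 FPKM, within the isotype range. Il12rb2 overlaps Serbp1 on the opposite strand over 6419 bases. Il18, Ebi3, Il27 and Il18bp also overlap genes on the opposite strand, from 4507 bases (Il18 with Tex12) down to 80 (Il18bp with Numa1). The library kit kept strand, but the strand setting of the counting is not given in the sources used here.

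Il12rb1 (chr8:70808449-70821424), the chain that binds p40, had the highest median of the 4 receptor chains in every tumor group. It had 18.8, 24.1, 25.7, 31.5 and 26.1 FPKM in isotype 2-dose tumors. PD-1 Ab tumors had 42.9, 36, 40.3, 48.9 and 46.3 FPKM, all above the controls. The log2 change of 0.77 (SE 0.13) had an adjusted p of 0.00306 but stayed under 2-fold. The genetic arm gave medians of 36.5 FPKM under PD-1cKO and 31.6 in WT, with 2 PD-1cKO tumors at 9.46 and 15.4 below all WT tumors (log2 change -0.03, adjusted p = 0.915). The Il12rb1 level per Il12rb2 level had a median of 32.9 in isotype and 16.4 in PD-1 Ab 2-dose tumors (18.8 to 77.7 and 13.6 to 27.2). It had medians of 76.4 in WT and 35.3 under PD-1cKO, and 3.85 in cultured cells.

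Il18r1 (chr1:40465552-40500854), the ligand-binding chain of the IL-18 receptor, and Il18rap (chr1:40515362-40551705), its accessory chain, are neighbors on chromosome 1. Il18r1 had 0.458, 0.593, 0.439, 0.605 and 0.376 FPKM in isotype 2-dose tumors and 3.54, 2.99, 2.55, 2.17 and 0.975 FPKM with PD-1 Ab. All PD-1 Ab tumors were above all controls (log2 change 2, SE 0.32, adjusted p = 0.00188). Under PD-1cKO it spread from 0.502 to 8.26 FPKM (median 2.21) and in WT from 0.272 to 2.47 (median 0.757). The ranges overlapped, and 5 of 10 PD-1cKO tumors exceeded every WT tumor (log2 change 1.5, SE 0.41, adjusted p = 0.00779). This call was lost in 13 of 20 fits without 1 tumor, with an adjusted p of up to 0.0161.

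Il18rap had 8.15, 10.0, 5.49, 8.72 and 6.93 FPKM in isotype 2-dose tumors and 10.2, 9.22, 9.68, 8.7 and 10.8 with PD-1 Ab, overlapping (log2 change 0.33, SE 0.15, adjusted p = 0.137). Medians were 6.73 FPKM under PD-1cKO and 6.97 in WT (log2 change -0.19, SE 0.16, adjusted p = 0.335). Cultured MC-38 cells had 8.72, 10.1 and 9.37 FPKM, within the range of the 2-dose tumors, above all WT tumors and below all baseline and PD-1 Ab 1-dose tumors, beside Il18r1 levels of 0.0994, 0.0339 and 0.0451. The Il18rap level per Il18r1 level thus had a median of 208 in culture, 17.0 in isotype and 3.79 in PD-1 Ab 2-dose tumors, 9.23 in WT and 2.79 under PD-1cKO.

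**Figure D3:**
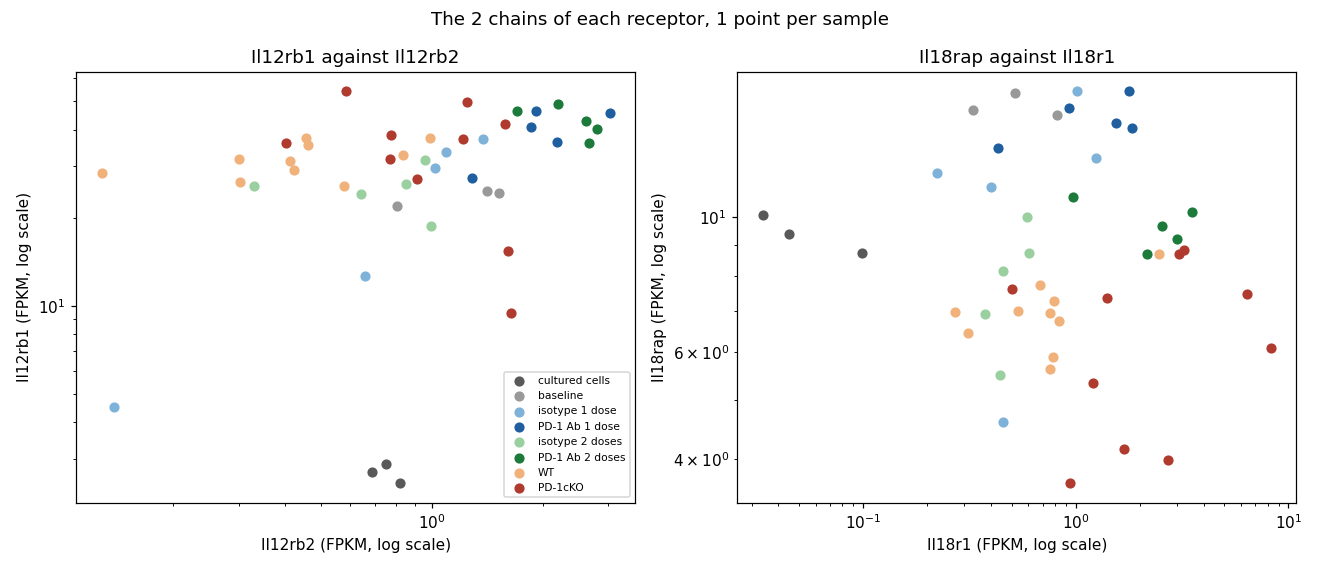
Il12rb1 against Il12rb2 and Il18rap against Il18r1 in FPKM, both axes on log scales, 1 point per sample. Cultured cells lie at 2.48 to 2.89 FPKM of Il12rb1, below every tumor, but at 8.72 to 10.1 FPKM of Il18rap, inside the range of all tumors, with Il18r1 below 0.1.

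The comparison of isotype 2-dose tumors with cultured cells asked which members the line itself carries. Of 7 members tested, 5 were higher in tumors (Ebi3, Il27, Il12rb1, Il18bp and Il18), against 14.2% of all genes tested. At an adjusted p under 0.05 the count was the same 5, against 54.5% of genes in either direction. Il12rb1 rose from a mean of 2.7 to 25.2 FPKM (log2 change 3.16, SE 0.15, adjusted p = 2.3e-07). Il18bp went from 2.67 to 15.1 FPKM (2.39, SE 0.24, adjusted p = 3.75e-05) and Il18 from 1.22 to 3.69 (1.52, SE 0.20, adjusted p = 0.000211). Il12rb2 (log2 change -0.07, adjusted p = 0.869) and Il18rap (-0.28, adjusted p = 0.218) did not pass, and Il12b and Il18r1 were under the filter. In bulk samples, fewer cells of a type and less RNA per cell cannot be told apart.

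Baseline tumors were set against isotype 2-dose tumors, both without PD-1 Ab. These groups also differ in identifier run, and the labels give baseline tumors no antibody dose, which the comparison does not separate. No member of 9 was called higher, against 0.428% of genes. At an adjusted p under 0.05, 1 member passed, Il18rap, against 3.05% of genes. Baseline tumors had 14.7, 16 and 15.0 FPKM of Il18rap and isotype 2-dose tumors 5.49 to 10.0, without overlap (log2 change 0.97, SE 0.18, adjusted p = 0.0228). This pass was lost with no filter (adjusted p = 0.0517), with coding-gene scaling (adjusted p = 0.066), with the replicate block (adjusted p = 0.202), and without baseline replicate 1, 2 or 3 or isotype replicate 1 or 5 (adjusted p = 0.0963, 0.106, 0.0671, 0.0512 and 0.0665).

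After 1 dose of PD-1 Ab, no member was called, as for all genes (0% called higher). By limma, 895 of 14556 genes had an unadjusted p under 0.05, among them Il18bp (p = 0.00053) and Il12rb2 (p = 0.0142). The 9 members had a median log2 change of 0.92, against 0.26 over all genes. Values for several members rested on isotype replicate 1. Without it, the log2 change of Ebi3 went from 0.49 to 0.00, that of Il12b from 0.78 to 0.15, that of Il27 from 1.48 to 0.71 and that of Il12rb1 from 1.06 to 0.56, while Il18bp kept 1.51 (adjusted p = 0.0599). Within the 1 run of identifiers that held both groups (5 PD-1 Ab and 2 isotype tumors), Il18bp differed by 1.6 on the log2 scale and Il12b by -0.01.

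After 2 doses, 4 of 9 members were called higher (Il18bp, Il12b, Il18r1 and Il12rb2), against 5.03% of all genes, and none lower. At an adjusted p under 0.05, 7 of 9 passed, all higher, against 24.5% of genes in either direction. The members' median log2 change was 1.33 and that of all genes -0.04. By role, 1 of 4 tested ligand subunits, 2 of 4 receptor chains and the inhibitor were called. PD-1 Ab replicate 5 was the lowest of its group in 7 of 9 members. It also had the lowest marker sums of T cells (44.2 FPKM) and of macrophages and monocytes (1520 FPKM).

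Under the PD-1cKO label, 3 of 9 members were called higher (Il18bp, Il18r1 and Il12rb2), against 4.2% of genes, and none lower. At an adjusted p under 0.05, 4 of 9 passed, against 43.6% of genes. The members' median log2 change was 0.71, against -0.20 over all genes. The latter moved to -0.02 when libraries were rescaled by the median of ratios, where calls over all genes went from 633 higher and 584 lower to 949 higher and 312 lower and the same 3 members stayed called. With the run of identifiers as a covariate no gene of 15075 was called. Il18bp then had a log2 change of 1.68 (adjusted p = 0.0257), Il18r1 2.50 (adjusted p = 0.027) and Il12rb2 1.40 (adjusted p = 0.0507). Within the run that held 1 PD-1cKO and 9 WT tumors, Il18bp differed by 2.14 on the log2 scale, and by 1.05 in the run that held 2 and 1.

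**Figure D4:**
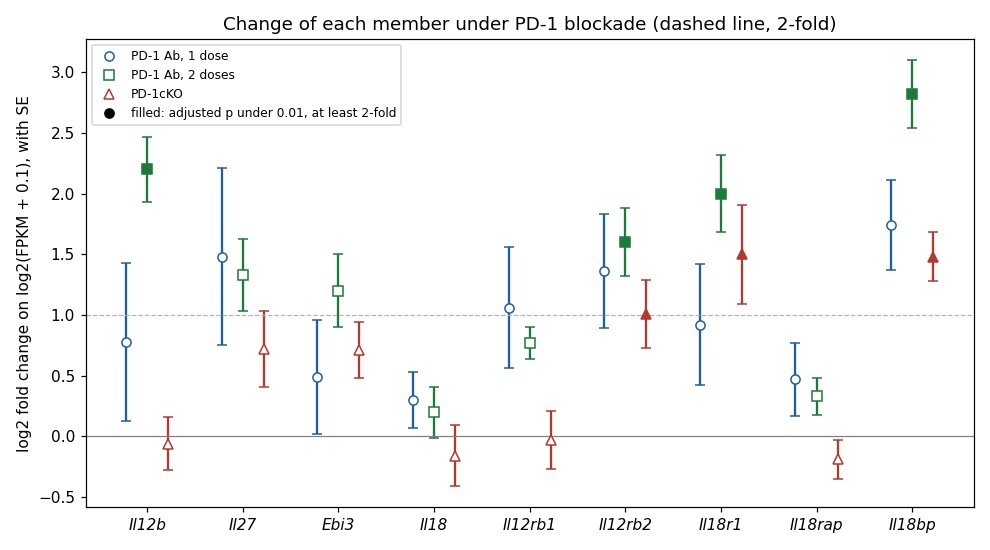
Log2 fold change of FPKM + 0.1 with SE for 9 members under 1 dose of PD-1 Ab, 2 doses of PD-1 Ab and the PD-1cKO label, with filled symbols for calls and a dashed line at 2-fold. Il12b stands at 2.20 after 2 doses and at -0.06 under PD-1cKO, whereas Il18bp lies above 1 in all 3.

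The antibody and deletion responses were compared directly by an interaction term. The difference between the 2-dose and the PD-1cKO response was called higher for 1 of 9 members, Il12b, at 2.27 on the log2 scale (SE 0.33, adjusted p = 0.0012), against 0.0792% of genes. It was no longer called with median-of-ratios scaling (2, adjusted p = 0.0105) or with all tumors in 1 fit (2.27, adjusted p = 0.0414). Il18bp differed by 1.34 (SE 0.35, adjusted p = 0.0725). The isotype 2-dose tumors were the lowest tumor group for Il12b, with a highest value of 0.322 FPKM, and 9 of 10 WT tumors lay above 0.322. The difference between 2 doses and 1 dose was called for no member, as for all genes (0%). By limma, 1182 of 15289 genes had an unadjusted p under 0.05 there, Il18bp among them (p = 0.0384).

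Ordered by group median over the 7 tumor groups, Il18bp separated at 1 step only. The isotype, WT and baseline groups (13.3 to 23.2 FPKM) lay below PD-1cKO (44.4), PD-1 Ab 1 dose (46.3) and PD-1 Ab 2 doses (123), and the ranges of baseline and PD-1cKO did not overlap. WT, with 1 tumor at 30.1 FPKM, did overlap PD-1cKO. All other neighbors in that order overlapped. The Il27 order had such a step between baseline (0.0975 to 1.66 FPKM) and PD-1 Ab 1 dose (1.75 to 2.74). Isotype 1-dose tumors, lower in median, ran from 0 to 2.53 FPKM of Il27 and did overlap PD-1 Ab 1 dose. For Il12b, Il12rb1, Il12rb2, Il18, Il18r1, Il18rap and Ebi3, every pair of tumor groups that were neighbors in order had overlapping ranges.

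Within groups, the members divided in the genes they resembled. After removal of each group's mean, log2 levels over 43 tumors gave Il18bp its highest Pearson correlations with the T cell genes Il2rb, Cd8a and Cd3g (0.89 each), and Il18r1 with Gimap3 (0.88), Klrc1 (0.87) and Gimap8 (0.86). Il12rb2 was most like Akna (0.85) and Tigit (0.84), and Il12rb1 most like the antigen-processing genes Psmb9 (0.91) and Tap1 (0.90). Ebi3 was most like Rhog (0.87), Il27 most like Cd74 (0.79), Il12b most like Sh3bp2 and Vav1 (0.84 each), and Il18rap most like S100pbp (0.88), whereas Il18 reached only 0.58, with S100a4. Leaving out isotype 1-dose replicate 1 lowered the value for Il12b to 0.70 and for Il27 to 0.67. Tumors share dissection, library and FPKM total in each such value, which is a description.

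Among the members themselves, without that library (42 tumors), Il12rb2 and Il18r1 had r = 0.73, Il18bp and Il18r1 0.70, Il18bp and Il27 0.67 and Il27 and Ebi3 0.60. The chains of a receptor were less alike, with r = -0.06 for Il12rb1 and Il12rb2 and 0.28 for Il18r1 and Il18rap, and Il18 and Il18bp had -0.03.

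Genes of the same pathways were counted from lists. Among the partners, Il27ra, the ligand-specific chain of the IL-27 receptor, was called under PD-1cKO (4.01 against 0.976 FPKM, log2 change 1.69, adjusted p = 0.00182). It had a change of 1.56 after 2 doses (adjusted p = 0.0135), where PD-1 Ab tumors held 0.704 to 3.72 FPKM and isotype tumors 0.524 to 0.87. Il6st, its shared chain, was abundant throughout, with 42.2 to 43.9 FPKM in culture, and had changes of 0.34 (adjusted p = 0.18) and 0.00 (adjusted p = 0.99).

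Of the JAK-STAT genes, Stat4, the transducer of the IL-12 receptor, was called higher after 2 doses (3.52 against 0.832 FPKM, log2 change 1.81, adjusted p = 0.005), as was the kinase gene Tyk2 (1.11, adjusted p = 0.00203). Under PD-1cKO neither was called, with Stat4 at 0.40 (adjusted p = 0.307) and Tyk2 at 0.88 (adjusted p = 0.00133, under 2-fold). Of 8 genes that sense danger or process IL-18, 3 were called after 2 doses, Nlrp1b (2.26), Nlrc4 (1.41) and Nlrp3 (1.2), and 0 under PD-1cKO. Casp1, the protease that matures IL-18, had changes of 0.23 (adjusted p = 0.468) and -0.66 (adjusted p = 0.00777, under 2-fold). In the IL-18 signaling list 0 of 7 were called in either comparison, with Myd88, the adaptor, at 0.42 (adjusted p = 0.0575) and 0.29 (adjusted p = 0.0248) and Sigirr, a negative regulator, at -0.25 and -0.36. Likewise 0 of 4 neighbors of Il18r1 in the IL-1 receptor cluster were called in either.

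Of 8 tested inducers of the ligands, 3 were called after 2 doses and 1 under PD-1cKO. Irf8, a myeloid transcription factor needed for Il12b expression, passed in both (62 against 20.3 FPKM, log2 change 1.58, adjusted p = 0.000806, and 55.2 against 25.7 FPKM, 1.06, adjusted p = 0.000414). Tlr9 (2.30, adjusted p = 0.00122) and Cd40 (1.41, adjusted p = 0.00101) were called after 2 doses, and Cd40 had 0.53 under PD-1cKO (adjusted p = 0.0119). Irf1 and Batf3 did not reach the limits, at 0.62 and 1.00 after 2 doses (adjusted p = 0.00349 and 0.0194) and 0.05 and 0.81 under PD-1cKO (adjusted p = 0.846 and 0.00395). Of 11 genes of type 1 effector output, 7 were called higher in each comparison, among them Prf1 (3.55 and 1.73), Gzmb (3 and 1.43), Ifng (2.52 and 1.02) and Tbx21 (2.10 and 1.80).

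Markers of some other cell types were called as well. None of the tested B cell, keratinocyte or epithelial markers was called in either comparison, nor was Ptprc (1.42 after 2 doses and 0.43 under PD-1cKO). The median log2 changes of these lists were 0.6 and 0.39 (B cell), -0.22 and -0.02 (keratinocyte) and 1.6 and 1.31 (epithelial). Epithelial sums spread widely, from 1.09 to 47.5 against 1.1 to 24.9 FPKM and from 0.593 to 57 against 0.696 to 6.8. All 8 T cell markers were called higher in both comparisons, with a summed level of 44.2 to 184 FPKM in PD-1 Ab 2-dose against 10.9 to 22.5 in isotype tumors, and 34.9 to 164 under PD-1cKO against 14.8 to 52.3 in WT. Of 9 macrophage and monocyte markers, 7 and 4 were called, with sums of 1520 to 3170 against 819 to 1290 FPKM and 1370 to 4620 against 947 to 1590 FPKM. Of 8 dendritic cell markers, 2 of 8 tested were called after 2 doses, Xcr1 (1.98, adjusted p = 0.00235) and Clec9a (1.72, adjusted p = 0.00444), and 0 of 7 under PD-1cKO. Sums of that list (176 to 236 against 220 to 318 FPKM, and 50.2 to 123 against 93.3 to 157) rest mostly on Fscn1, at 170 to 180 FPKM in cultured cells. Of 5 NK cell markers, 1 of 4 tested was called after 2 doses, Klre1 (2.18, adjusted p = 0.00365), and 0 of 3 under PD-1cKO. At an adjusted p under 0.05, 3 of 4 passed after 2 doses and 1 of 3 under PD-1cKO, all higher. Sums of the NK list were 38.8 to 54.9 against 38.3 to 58.9 FPKM and 5.18 to 34.8 against 18 to 37. Cultured cells alone summed to 22.5 to 24.6 FPKM on it, so these sums do not measure NK cells alone. Of 6 neutrophil markers, Csf3r was called higher in both comparisons (1.98 and 1.26), and S100a8 lower after 2 doses (-2) and higher under PD-1cKO (2.47), with sums of 8.51 to 31 against 6.5 to 16.9 FPKM and 7.13 to 316 against 4.59 to 14.3. Of 5 fibroblast markers, 0 were called after 2 doses and 3 were called higher under PD-1cKO, Col1a1, Col3a1 and Lum, with sums of 1050 to 2090 against 752 to 1680 FPKM and 1660 to 8870 against 840 to 1680. Of 3 endothelial markers, 1 was called higher after 2 doses, Pecam1, and 0 under PD-1cKO, with sums of 20.2 to 68.2 against 14.3 to 19 and 19.2 to 53.1 against 16 to 35.8. Of 3 adipocyte markers, 1 was called higher after 2 doses, Plin1, and 0 under PD-1cKO, with sums of 4.95 to 118 against 1.24 to 14.7 FPKM and 0.825 to 289 against 0.768 to 21.1. Of 3 skeletal muscle markers, 1 was called higher after 2 doses, Acta1, and 0 under PD-1cKO, with sums of 0.704 to 42.7 against 0.162 to 0.429 FPKM and 0.269 to 549 against 0.424 to 214. The marker genes named here were chosen after their values were seen. The part of these cell markers in the members' changes was not tested.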

How the data were processed

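The authors extracted RNA from whole snap-frozen tumors or cultured cells, built libraries with a stranded total RNA kit after ribosomal depletion, sequenced paired 50-base reads, and aligned them with the Omicsoft aligner to mouse build B38 with Ensembl genes. The deposited values are FPKM per gene (fragments per kilobase and per 1e+06 mapped), normalized by the authors. Counts were not analysed here, so depth and counting error are unknown, and the study's count test (DESeq2) was replaced by limma 3.58.1 (R 4.3.3) on log2(FPKM + 0.1), two-sided, for genes averaging 0.5 FPKM or more in 1 of the fitted groups, adjusted by Benjamini-Hochberg over all of them. Only the groups compared entered each fit, with no covariate. Limits were an adjusted p of 0.01 with 2-fold, and 0.05 alone.

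The members, gene lists and tests were chosen with earlier results of these data known. All 10 members are named, fixed pathway genes (1 of them is not reported here), the 2 called genes with the largest change of each list, and the 3 genes most like each member. Groups follow the labels. Nothing in the labels says that same-numbered samples are paired, so p-values measure the spread between samples. Alternatives covered the pseudocount, filter, scaling, spread estimate, sample weights, identifier runs, replicate block and each sample left out, and scaling by coding genes, which was chosen after seeing the data. The test was tested on simulated data, where genes averaging at least 1 FPKM were changed by 2 on the log2 scale. Noise was normal and independent between samples, with no identifier runs. Recovery of smaller changes, as those called under PD-1cKO, or of genes under 1 FPKM was not simulated. The test recovered 56.5% (1 dose), 89% (2 doses) and 94.5% (PD-1cKO) of 200 changed genes with at most 1 false call. For the difference between the 2-dose and PD-1cKO responses, used for Il12b, it recovered 79.4% of 199, with 4 false calls. For the difference between doses it recovered 59% of 200, with 0 false calls. Tumors against culture gave 84% of 200 and baseline against isotype 89.4% of 199, each with 0 false calls. Annotation is GENCODE M21 (GRCm38), which matched 99.26% of gene identifiers, and promoters are RefSeq's (GRCm38.p6).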

Additional observations from a re-analysis of the deposited data

Results flagged for a closer look

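Samples standing apart from the rest of their group were sought among 59 member and group pairs of 4 to 10 samples with Dixon's ratio, and 5 were found. Chance flags about 1 in 20 groups. Il12a stood apart at 0.237 FPKM in isotype 1-dose replicate 3 and at 0.154 FPKM in PD-1 Ab 1-dose replicate 4, where the other 4 tumors of each group were listed at 0. With 4 of 5 values at 0, any value above 0 is flagged, so the chance rate does not apply to these 2. The other 3 fell in 1 tumor, WT replicate 3, with Il18bp at 30.1 FPKM, Il18r1 at 2.47 FPKM and Il27 at 1.41 FPKM, each the highest of the 10 WT tumors. Without it, the log2 change between PD-1cKO and WT remained called for Il18bp, Il18r1 and Il12rb2. The Il12b response differed between models by 2.27 on the log2 scale (limma interaction term, adjusted p = 0.0012), higher in 5 of 5 PD-1 Ab 2-dose tumors against every isotype tumor and in 1 of 10 PD-1cKO tumors against every WT tumor. Antibody and genetic arms also differ in the mice's genotype and tamoxifen, in collection time, in identifier runs and in the share of short noncoding RNA. These cannot be told apart.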

How the results depend on the processing

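After 2 doses of PD-1 Ab, 3 to 6 members were called under 11 alternatives and 3 to 6 on leaving out each sample, and in tumors against culture 5 to 7 and 5 to 6. Baseline against isotype gave 0 throughout. At an adjusted p under 0.05 alone, all tumors in 1 fit lost Il27 and Il12rb1 after 2 doses (adjusted p = 0.154 and 0.206) and identifier runs lost Ebi3 and Il12rb2 under PD-1cKO (0.144 and 0.0507). After 1 dose, all tumors in 1 fit called 1 member, Il18bp (adjusted p = 0.00609), and leaving out samples 0. Under PD-1cKO, 1 member, Il18bp, was called with a pseudocount of 1, with no filter, with array weights and with the replicate block, 0 with identifier runs as a covariate, and 1 to 3 on leaving out each sample. The difference between models gave 0 calls with median-of-ratios scaling, with all tumors in 1 fit and with the replicate block (Il12b adjusted p = 0.0117), and 2 with array weights. The difference between doses gave 3 with array weights. The cause was not tested. No called change turned direction. Replicate numbers did not pair the tumors (correlations of -0.244 to 0.186 between same-numbered samples, and 1 of 5, 0 of 5 and 0 of 10 correlating best with their own number). The block lost the call of Il12rb2 after 2 doses (adjusted p = 0.0171), where 301 rather than 758 genes were called higher. FPKM keep no depth, so levels under 0.5 carry an unknown counting error. This bears on Il12a, Il12b in isotype tumors and Il18r1 in culture, and on controls of called changes. Isotype 2-dose tumors went down to 0.376 FPKM for Il18r1 and 0.33 for Il12rb2. WT medians were 0.441 FPKM for Il12rb2 and 0.386 for Il27, which was not called there.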

Other observations

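The proportion between ligand subunits was also computed. The Ebi3 level per Il12b level was 9.28 to 35.3 (median 16.2) in isotype and 5.17 to 9.99 (median 7.13) in PD-1 Ab 2-dose tumors, 1.01 to 7.59 (median 1.83) in WT and 2.09 to 13.3 (median 3.45) under PD-1cKO. Baseline tumors had 3.82 to 15.9, and 1-dose tumors 3.82 to 14.1 with isotype and 4.56 to 8.2 with PD-1 Ab. The Il12b level per Il27 level was 0.152 to 0.366 in isotype 2-dose tumors, 0.312 to 0.702 with PD-1 Ab, 0.509 to 4.15 (median 1.43) in WT and 0.15 to 1.7 (median 0.794) under PD-1cKO. It was 0.514 to 1.65 in baseline tumors, and after 1 dose 0.449 to 0.731 with isotype and 0.285 to 0.452 with PD-1 Ab. These ratios of low levels overlapped in most pairs of groups and were not tested. Il27ra, the chain that pairs with Il6st, spread from 1.29 to 11.8 FPKM among the PD-1cKO tumors and from 0.485 to 2.1 FPKM in WT, and Il18r1 from 0.502 to 8.26 FPKM, with PD-1cKO replicates 4 and 8 at 6.4 and 8.26 FPKM. The same 2 tumors had the highest Il27ra levels of their group, 7.8 and 11.8 FPKM, and the lowest Il12rb1 levels of their group, 9.46 and 15.4 FPKM. They also had the highest shares of short noncoding RNA, 64.0% and 66.5% of the FPKM total. Their T cell marker sums, 121 and 164 FPKM, were the highest of their group too. The part of these in the levels was not tested.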
